A study of Mus musculus with 7 samples.

Results

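Chemokine and chemokine receptor genes were examined in mesenteric artery, the small arteries that feed the intestine, of mice whose smooth muscle carried a dominant-negative PPARγ. The members are the array rows annotated with exactly 1 gene symbol that begins as a C-C, CXC, CX3C or XC chemokine, a receptor of one of these, or an atypical chemokine receptor. This rule used no measured value and found 52 genes, each with 1 row, of 23332 rows in all, of which 14996 had exactly 1 symbol. They comprised 31 ligands, 17 signalling receptors and 4 atypical receptors. Ccl19 and Ccl21a were not analysed here.

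The P467L group held 3 male transgenic mice in which a smooth muscle-specific promoter, that of smooth muscle myosin heavy chain (SMMHC), drove human PPARγ with the P467L mutation, and the control group held 4 non-transgenic littermates. The labels give neither age nor strain. Each array measured the RNA of 1 mouse on an Affymetrix mouse exon array, and every value is a log2 value after RMA normalization, so that a difference of 1 is a 2-fold difference. PPARγ is a nuclear receptor that activates genes of fat cell formation and lipid handling, and the P467L form interferes with it. The comparison asks whether interference with PPARγ in vascular smooth muscle is accompanied by a different level of these transcripts in the vessel.

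Chemokines are small secreted or membrane-bound proteins that steer white blood cells, and they act through G protein-coupled receptors on those cells. In a vessel wall, ligands can come from endothelium, smooth muscle, fibroblasts and resident macrophages, while most receptor transcripts come from leukocytes. Atypical receptors bind chemokines without classical G protein signalling and remove or transport them. Many inflammatory ligands are induced by NF-kappaB, a transcription factor that PPARγ is known to restrain in several cell types.

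The promoters of 3 inflammatory ligands are shown because they carry the letters by which such induction is usually recognised. Of the 52 members, 38 had a promoter in the RefSeq table of GRCm38.p6, which covers 250 bases before and 50 after the start of each gene. The 250 bases before the start are given 5′ to 3′ in the direction of the gene, and capitals mark matches to GGGNNNTTCC, a loose form of the NF-kappaB motif, and to GAAANNGAAA, a form of the interferon response motif. Both strands were searched, and overlapping matches run together. The Cxcl1 window lies at chr5:90890995-90891244 on the plus strand, the Cxcl2 window at chr5:90903649-90903898 on the plus strand and the Cxcl10 window at chr5:92348890-92349139 on the minus strand.
Cxcl1: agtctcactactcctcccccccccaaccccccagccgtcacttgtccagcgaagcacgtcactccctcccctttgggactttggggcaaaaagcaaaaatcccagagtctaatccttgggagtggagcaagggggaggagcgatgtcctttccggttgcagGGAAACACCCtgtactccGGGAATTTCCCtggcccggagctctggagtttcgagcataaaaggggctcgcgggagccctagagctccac
Cxcl2: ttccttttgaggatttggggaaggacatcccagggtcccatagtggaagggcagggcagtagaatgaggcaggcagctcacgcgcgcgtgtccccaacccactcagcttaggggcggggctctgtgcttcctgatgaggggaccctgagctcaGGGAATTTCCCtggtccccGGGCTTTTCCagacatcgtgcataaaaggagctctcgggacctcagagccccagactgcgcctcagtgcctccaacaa
Cxcl10: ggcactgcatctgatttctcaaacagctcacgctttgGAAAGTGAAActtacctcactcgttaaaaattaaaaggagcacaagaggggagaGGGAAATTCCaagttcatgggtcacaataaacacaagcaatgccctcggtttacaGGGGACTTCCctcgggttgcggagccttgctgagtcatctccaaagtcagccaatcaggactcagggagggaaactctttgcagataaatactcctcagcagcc
In Cxcl1 the NF-kappaB letters lie between 89 and 61 bases before the start, and in Cxcl2 they lie between 97 and 69 bases before it. Cxcl10 holds 2 matches to the NF-kappaB letters, which begin 159 and 104 bases before the start, and 1 match to the interferon letters, which begins 213 bases before it.

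The NF-kappaB letters occurred in 8 of the 38 members (21.1%), which were Ccl1, Ccl9, Ccl20, Ccr3, Ccr6, Cxcl1, Cxcl2 and Cxcl10, and in 6.31% of all genes with a promoter in the table. That share depends on how the motif is written. The looser GGGNNNNNCC was found in 22 members (57.9%) and 53.5% of genes, and the stricter GGGANTTTCC in 3 members (7.89%) and 0.466% of genes. The interferon letters occurred in 2 members, Cxcl10 and Cxcl14 (5.26%), against 3.99% of genes. The letters TATAAA occurred in 13 members (34.2%) against 15.7% of genes, and the AP-1 letters TGANTCA in 7 members (18.4%) against 8.97%. AGGTCANAGGTCA, the direct repeat that PPARγ binds with its partner RXR, was found in 0 members and in 0.0481% of genes. These 7 patterns were written with the hits in view, so the shares describe the windows only, and a match is not evidence of binding.

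The arrays were alike in scale. Array medians lay between 6.29 and 6.34, and Pearson's r between any pair of arrays was 0.954 to 0.979 across rows, which are not independent replicates. The P467L transgene itself was not checked here, since no row was assigned to it. On all arrays 1 member, Ccl11, lay above the upper quartile of the rows of its array, 10 members lay below the lower quartile, and the other 41 lay between or moved across. Detection calls were not used, so a dim row has no stated background limit. As the samples are whole vessels, fewer cells of a type and less RNA per cell cannot be told apart.

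No chemokine or receptor gene differed between the groups by the test across all rows. With limma, 0 of the 52 members had an adjusted p under 0.05, and the adjusted p was 1 for every member. The background was also 0% of all 23332 rows, whose lowest adjusted p was 0.709. Members with an unadjusted p under 0.05 numbered 0, against 3.10% of all rows and 2.14% of rows with 1 symbol. In 0 members were the groups without overlap, against 2.57% of all rows and 1.93% of rows with 1 symbol. With 3 mice against 4, an exact two-sided permutation test of a single gene cannot go below p = 0.0571.

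The differences were small in size. They ran from -0.33 for Cxcr2 to 0.36 for Cx3cr1 on the log2 scale (P467L minus non-transgenic). In 0 members did the difference pass 0.5 in either direction, against 3.53% of all rows and 0.68% of rows with 1 symbol. The mean was higher in P467L mice for 32 members and lower for 20, where 47.7% of all rows and 47.3% of rows with 1 symbol were higher. The median difference was 0.04 over the members and -0.0025 over all rows. The 95% interval of the difference lay inside 2-fold in both directions for 50 of the 52 members, against 87.4% of all rows and 97.5% of rows with 1 symbol. The exceptions were the receptor genes Ccr1l1, with an interval of -0.72 to 1.12, and Ccr4, with an interval of -0.89 to 1.23.

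**Figure D1:**
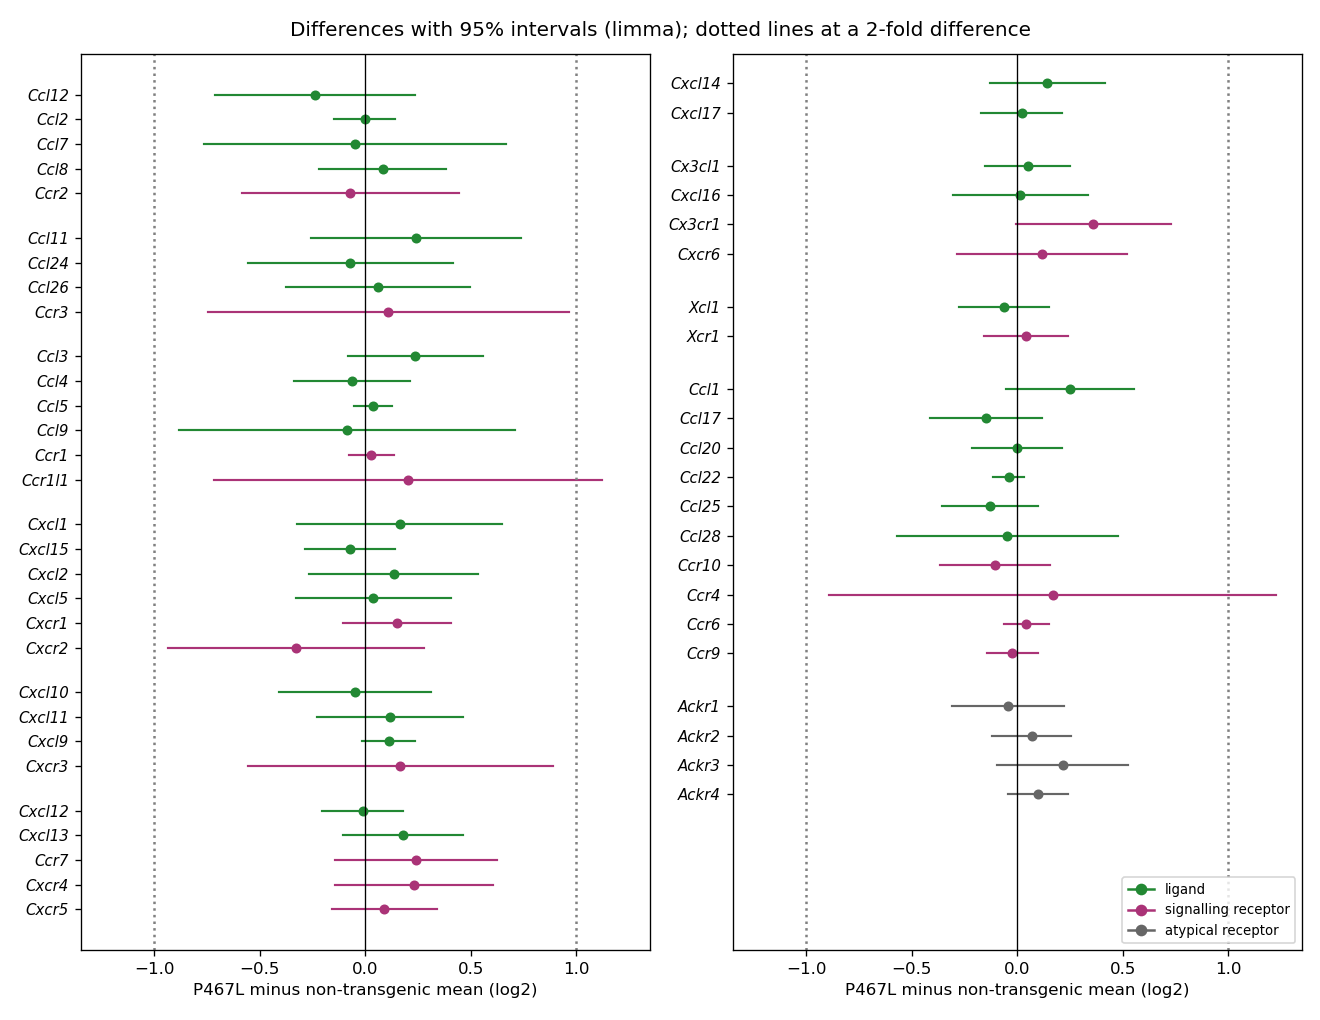
Differences between P467L and non-transgenic means on the log2 scale (horizontal axis) for the 52 members, grouped by ligand-receptor axis, with 95% intervals from limma as lines and dotted lines at 2-fold. Every interval crosses 0, and those of Ccr1l1 and Ccr4 are the only ones that pass a dotted line.

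By class, 16 of 31 ligands were higher in P467L mice and 15 lower, with a median difference of 0.015 that took either sign under the alternatives. Of the 17 signalling receptors 13 were higher and 4 lower, with a median of 0.11. Of the 4 atypical receptors 3 were higher and 1 lower, with a median of 0.08. None of these members passed the test, and the standard error of a single difference had a median of 0.12 over the members.

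The monocyte axis pairs the receptor Ccr2 with its ligands Ccl2, Ccl7, Ccl8 and Ccl12, which draw inflammatory monocytes out of the blood. Ccr2 was 7.68, 7.40, 7.31 and 7.20 in the 4 non-transgenic mice and 7.45, 7.65 and 6.88 in the 3 P467L mice. The P467L mice held the lowest of the 7 values and one close to the highest. The difference in Ccr2 was -0.07 with a 95% interval of -0.58 to 0.44 (limma, unadjusted p = 0.747).

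Ccl2, the main attractant of monocytes, had the narrowest spread of this axis. It was 6.20, 6.15, 6.18 and 6.35 in non-transgenic mice and 6.18, 6.20 and 6.27 in P467L mice. Its difference was -0.0033 with an interval of -0.15 to 0.14, so the groups lay on top of each other. Ccl7, a related ligand of the same receptor, was 7.18, 6.80, 6.16 and 6.79 in non-transgenic mice and 7.01, 6.82 and 6.22 in P467L mice. Both groups held a mouse near 6.2 and a mouse above 7, and the difference was -0.05 with an interval of -0.765 to 0.67.

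Ccl12 and Ccl8 were dim rows. Ccl12, a mouse ligand of Ccr2, was 4.71, 4.17, 4.83 and 4.67 in non-transgenic mice and 4.48, 4.52 and 4.07 in P467L mice. One mouse of each group was low, and the difference of -0.24 had an interval of -0.71 to 0.23 (limma, unadjusted p = 0.264). It was -0.095 without P467L replicate 3 and -0.38 without non-transgenic replicate 2. Ccl8 was 4.37 to 4.70 in non-transgenic mice and 4.51 to 4.90 in P467L mice, with a difference of 0.08.

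Ccl11, or eotaxin, attracts eosinophils through the receptor Ccr3. It was 9.40, 8.96, 9.07 and 9.49 in the non-transgenic mice and 9.18, 9.84 and 9.39 in the P467L mice. P467L replicate 2 was the highest of the 7, and the other 2 P467L mice lay within the non-transgenic range. The mean was 9.23 ± 0.25 (SD, n = 4) against 9.47 ± 0.34 (SD, n = 3), a difference of 0.24 with an interval of -0.26 to 0.74 (limma, unadjusted p = 0.284). Without P467L replicate 2 it was 0.055.

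The other eotaxins, Ccl24 and Ccl26, had differences of -0.07 and 0.06. Ccl24 was 6.34, 6.48, 6.45 and 6.43 in non-transgenic mice and 6.40, 6.77 and 5.89 in P467L mice, so that the P467L group held both the highest and the lowest value. Its SD was 0.06 among the 4 controls and 0.44 among the 3 P467L mice. Ccr3, the receptor, was a dim row with values from 3.21 to 4.52 that overlapped fully between groups.

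Ccl3, Ccl4 and Ccl5 attract monocytes and T cells. Ccl3 was 6.04, 5.76, 5.98 and 5.63 in non-transgenic mice and 5.94, 6.05 and 6.28 in P467L mice. The 2 highest values were both in P467L mice, but the third P467L mouse lay below 2 controls, and the difference of 0.24 had an interval of -0.08 to 0.56 (limma, unadjusted p = 0.120). Ccl4, its neighbour in the RefSeq gene order of chromosome 11, had a difference of -0.06.

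Ccl5 was 4.67 or 4.68 in the 4 non-transgenic mice and in 2 of the 3 P467L mice, and 4.78 in P467L replicate 1. Rows with such ties leave little to compare, and 5 of the 52 members held 1 value on 4 or more arrays. Ccr1 was 5.24 to 5.30 in non-transgenic mice and 5.26 to 5.39 in P467L mice. Ccr1l1, a mouse gene related to Ccr1, ranged from 5.49 to 6.86, both in P467L mice. Ccl9, a ligand of Ccr1 in the mouse, ran from 5.62 to 6.78, again with both ends in P467L mice, and its difference was -0.09. A further row that names both Ccl6 and Ccl9, and is no member, ran from 7.05 to 8.12 with its ends in the same 2 mice.

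The neutrophil axis joins the receptors Cxcr1 and Cxcr2 with ligands such as Cxcl1, Cxcl2 and Cxcl5, whose promoters are in part shown above. Cxcr2 had the lowest difference of all members. It was 6.65, 6.07, 5.80 and 5.82 in non-transgenic mice and 5.98, 5.44 and 5.85 in P467L mice. Non-transgenic replicate 1 stood above the others, and 2 of the P467L mice lay between the controls. The difference was -0.33 with an interval of -0.94 to 0.28 (limma, unadjusted p = 0.235), and it was -0.14 without non-transgenic replicate 1.

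Cxcl1, a neutrophil attractant, was 5.93, 6.04, 5.53 and 6.34 in non-transgenic mice and 6.31, 5.95 and 6.11 in P467L mice. All 3 P467L values lay inside the range of the controls, and the difference was 0.16 with an interval of -0.32 to 0.65, or 0.02 without non-transgenic replicate 3. Cxcl2, the next gene on chromosome 5, had a difference of 0.13, Cxcl5 one of 0.04 and Cxcl15, or lungkine, one of -0.07. Cxcr1 had a difference of 0.15 with an interval of -0.11 to 0.40.

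Cxcl9, Cxcl10 and Cxcl11 are induced by interferon and attract activated T cells through Cxcr3. Cxcl9 was 5.95, 5.92, 5.95 and 5.83 in non-transgenic mice and 5.95, 6.09 and 6.03 in P467L mice. The 2 highest values were in P467L mice and the third P467L mouse equalled the highest control, with a difference of 0.11 and an interval of -0.01 to 0.24 (limma, unadjusted p = 0.072). Cxcl10, whose promoter holds both kinds of letters, was 6.85, 6.86, 7.19 and 6.59 in non-transgenic mice and 6.68, 6.93 and 6.86 in P467L mice.

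The controls enclosed all P467L values of Cxcl10, and its difference was -0.05 with an interval of -0.41 to 0.31. Cxcl11, which RefSeq lists as a transcribed pseudogene in this reference strain, had a difference of 0.12. Cxcr3, the receptor on activated T cells, ranged from 5.27 to 6.47 and had a difference of 0.17 with an interval of -0.56 to 0.89.

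**Figure D2:**
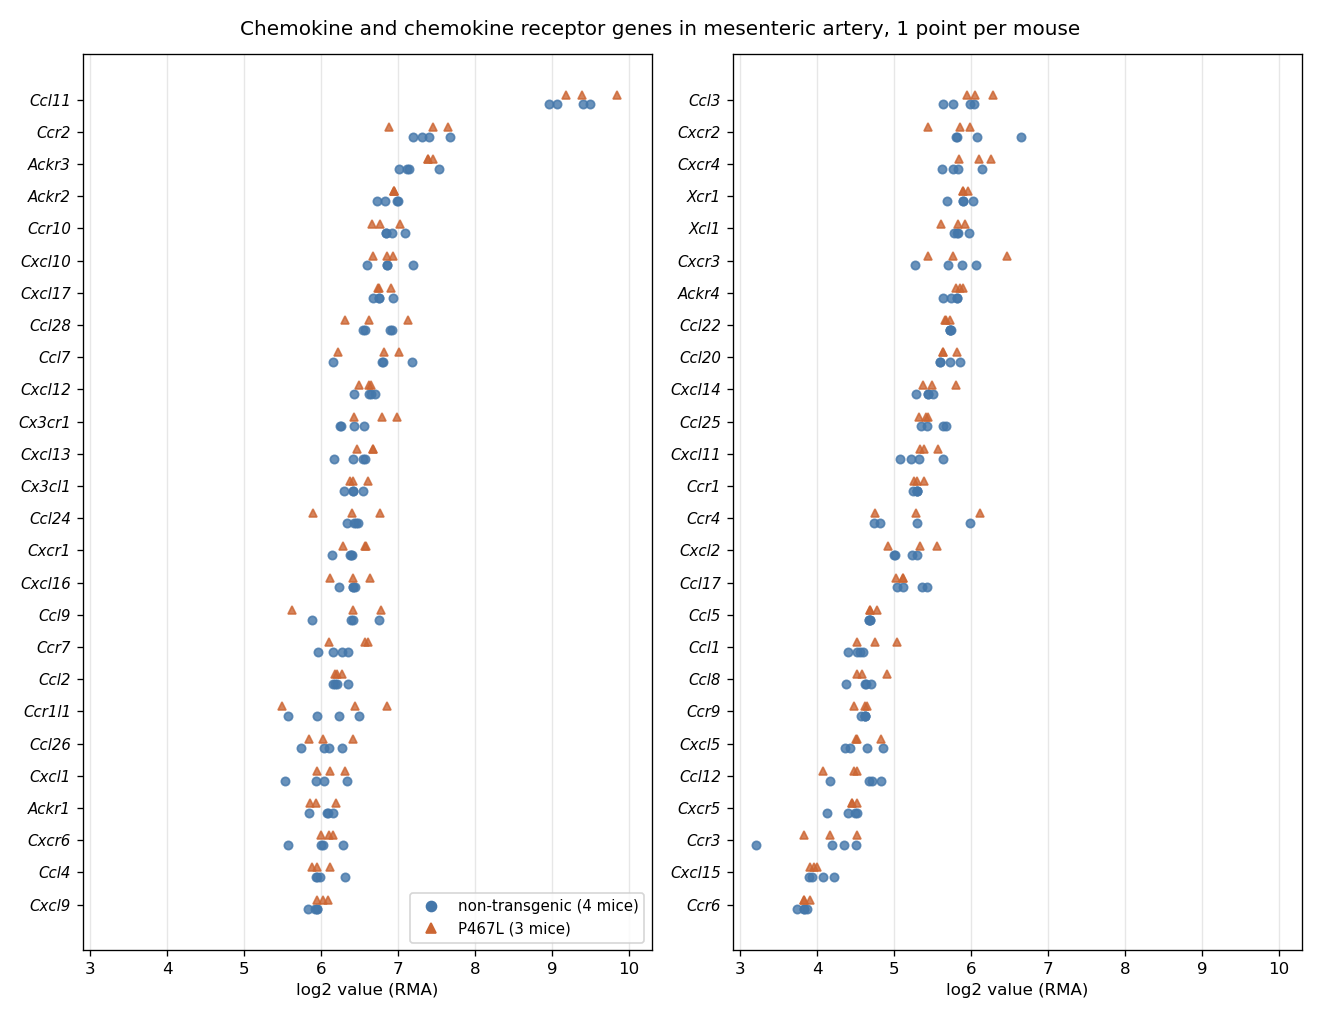
Log2 value (horizontal axis) of each of the 52 members in each mouse, with circles for the 4 non-transgenic and triangles for the 3 P467L mice. Rows are ordered by mean for reading only, since levels of different rows are not comparable, and in each row the symbols of the groups overlap.

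Cxcl12 and its receptors serve homing and vessel growth: Cxcr4 signals, and Ackr3 scavenges the ligand. Cxcl12 was 6.70, 6.62, 6.43 and 6.65 in non-transgenic mice and 6.49, 6.65 and 6.62 in P467L mice, a difference of -0.01 with an interval of -0.21 to 0.18. Cxcr4 was 6.14, 5.76, 5.62 and 5.83 in non-transgenic mice and 6.10, 6.26 and 5.84 in P467L mice. All 3 P467L mice lay above 3 of the controls, and the difference was 0.23 with an interval of -0.15 to 0.60 (limma, unadjusted p = 0.185).

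Ackr3, the scavenger of Cxcl12, was 7.01, 7.14, 7.11 and 7.53 in non-transgenic mice and 7.39, 7.39 and 7.46 in P467L mice. The 3 P467L mice were close together and above 3 of the 4 controls, while non-transgenic replicate 4 was the highest of the 7. The difference was 0.22 with an interval of -0.10 to 0.53 (limma, unadjusted p = 0.141).

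Cxcl13 with Cxcr5 guides B cells, and Ccr7 guides dendritic cells and naive T cells to lymph nodes. Cxcl13 was 6.57, 6.55, 6.17 and 6.42 in non-transgenic mice and 6.68, 6.68 and 6.46 in P467L mice, a difference of 0.18 with an interval of -0.11 to 0.47 (limma, unadjusted p = 0.176). Cxcr5 had a difference of 0.09. Ccr7 was 6.35, 5.96, 6.27 and 6.16 in non-transgenic mice and 6.10, 6.61 and 6.57 in P467L mice. The 2 highest values of Ccr7 were in P467L mice and the third lay within the controls, with a difference of 0.24 and an interval of -0.14 to 0.63 (limma, unadjusted p = 0.174).

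Cx3cr1, the fractalkine receptor of patrolling monocytes and many resident macrophages, had the highest difference of all members. It was 6.43, 6.26, 6.24 and 6.56 in the non-transgenic mice and 6.43, 6.79 and 6.98 in the P467L mice. P467L replicates 2 and 3 were above every control, and P467L replicate 1 equalled non-transgenic replicate 1. The mean was 6.37 ± 0.15 (SD, n = 4) against 6.73 ± 0.28 (SD, n = 3), a 1.28-fold difference. On the log2 scale this was 0.36 with an interval of -0.01 to 0.73 (limma, unadjusted p = 0.0528, adjusted p = 1), and it was 0.24 without P467L replicate 3.

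Its ligand Cx3cl1, which is held on the surface of endothelial cells, was 6.41, 6.54, 6.30 and 6.41 in non-transgenic mice and 6.61, 6.37 and 6.41 in P467L mice, with a difference of 0.05. Cxcl16, the other membrane-bound ligand, was 6.41, 6.44, 6.23 and 6.42 in non-transgenic mice and 6.64, 6.42 and 6.11 in P467L mice, with a difference of 0.02 (interval -0.31 to 0.34). Its receptor Cxcr6, found on T and NK cells, was 6.0, 5.57, 6.28 and 6.02 in non-transgenic mice and 6.16, 6.10 and 6.0 in P467L mice. The P467L values of Cxcr6 lay within those of the controls, with a difference of 0.12.

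The members whose values followed those of Cx3cr1 most closely over the 7 arrays were Cxcl14, with Pearson's r = 0.83, Ccr7 with 0.79, Ccl11 with 0.72, Ackr3 with 0.67 and Cxcr3 with 0.65. These coefficients are a description over 7 arrays that share their normalization.

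The atypical receptors other than Ackr3 varied little. Ackr2, which degrades inflammatory C-C chemokines, was 6.72, 6.98, 6.83 and 7.0 in non-transgenic mice and 6.95 in all 3 P467L mice, a difference of 0.07. Ackr4, the scavenger of Ccl19, Ccl21 and Ccl25, was 5.82, 5.74, 5.82 and 5.64 in non-transgenic mice and 5.90, 5.86 and 5.80 in P467L mice. Of its P467L values 2 were above all controls and 1 was within them, with a difference of 0.10 and an interval of -0.04 to 0.24 (limma, unadjusted p = 0.138). Ackr1, a chemokine transporter of venular endothelium and red cells, had a difference of -0.04.

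The remaining ligands and receptors are known mainly from skin, gut and other barrier tissues or from lymphocyte subsets. Ccl1, a ligand of Ccr8, was 4.40, 4.56, 4.51 and 4.59 in non-transgenic mice and 4.75, 4.52 and 5.03 in P467L mice. P467L replicates 1 and 3 exceeded every control while replicate 2 did not, and the difference was 0.25 with an interval of -0.05 to 0.55 (limma, unadjusted p = 0.0886). Without P467L replicate 3 it was 0.12. Ccr10, a receptor of skin-homing lymphocytes, was 6.84, 6.84, 7.09 and 6.92 in non-transgenic mice and 7.02, 6.66 and 6.77 in P467L mice.

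The difference in Ccr10 was -0.11 with an interval of -0.37 to 0.15. Ccl17 and Ccl22 share the receptor Ccr4 and had differences of -0.15 and -0.04. Ccl17 was 5.43, 5.12, 5.03 and 5.36 in non-transgenic mice and 5.12, 5.02 and 5.12 in P467L mice, and Ccl22 was 5.72 to 5.74 in non-transgenic mice and 5.66 to 5.72 in P467L mice. The groups overlapped in Ccl17 and met at 5.72 in Ccl22, and Ccr4 itself ran from 4.74 to 6.11 with high and low mice in each group. Ccl25, the gut ligand of Ccr9, was 5.67, 5.42, 5.35 and 5.64 in non-transgenic mice and 5.41, 5.32 and 5.44 in P467L mice, with a difference of -0.13 (interval -0.36 to 0.10).

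Of the members not yet described, Cxcl14 had a difference of 0.14, Cxcl17 of 0.02, Ccl20 of -0.0017, Ccl28 of -0.05, Ccr6 of 0.04, Ccr9 of -0.02, Xcl1 of -0.06 and Xcr1 of 0.04. Ccl20 with Ccr6, and Xcl1 with Xcr1, are ligand and receptor pairs, of dendritic and T cell traffic. Their 8 unadjusted p-values lay between 0.252 and 0.985 (limma).

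Mouse-to-mouse spread was described over all 7 arrays. The median SD of a member over the 7 arrays was 0.17, against 0.12 over rows with 1 symbol and 0.16 over all rows. Each mouse of both groups held the single highest value of some members and the single lowest of others. Non-transgenic replicate 4 was highest for 11 members and P467L replicate 3 for 10, while non-transgenic replicate 1 was lowest for 12 and P467L replicate 1 for 1.

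**Figure D3:**
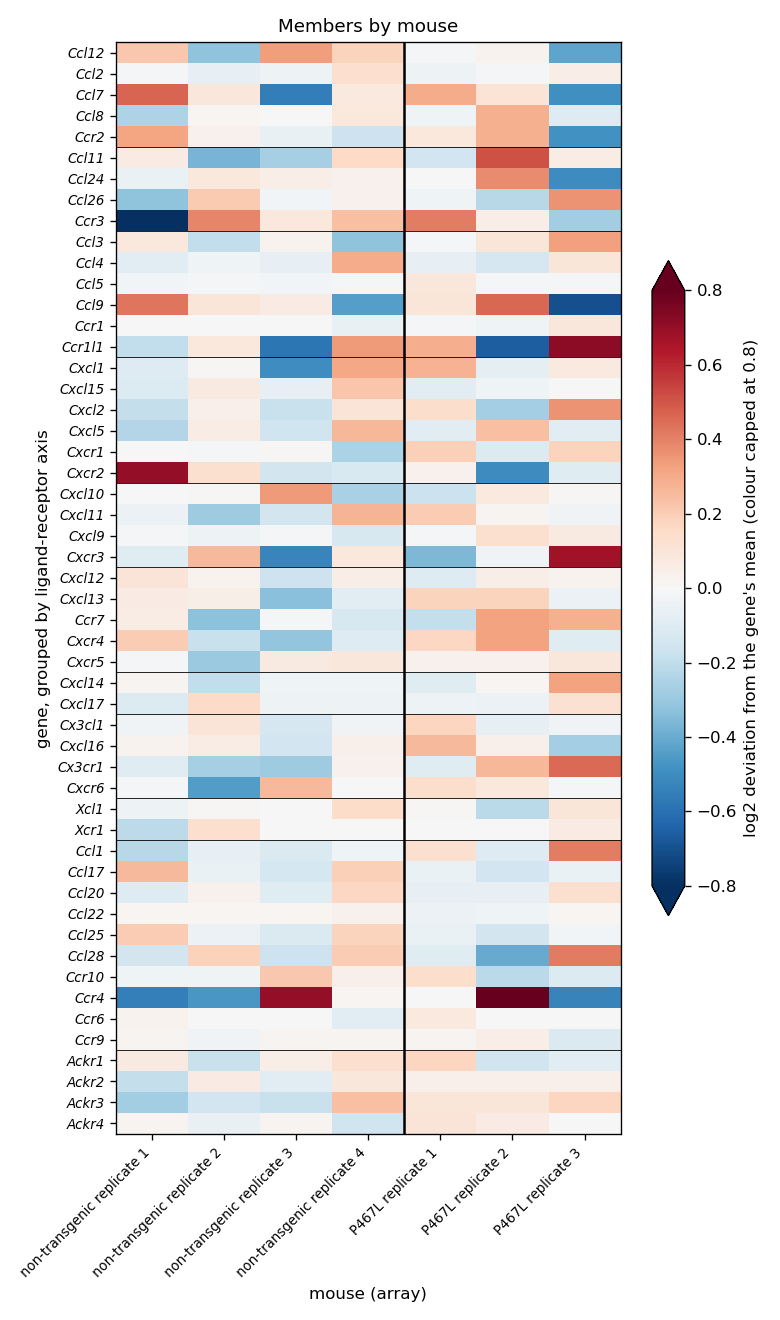
Deviation of each member (rows, grouped by axis) from its mean over the 7 arrays, on the log2 scale, in each mouse (columns), with the colour capped at 0.8. In no row do the 4 non-transgenic and the 3 P467L mice separate at the line between them, and Cxcr2 shows non-transgenic replicate 1 far from the rest.

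Ccr2, Ccl9, Ccl24 and Ccl7 were singled out after their values were seen, as members lower in P467L replicate 3 than in P467L replicate 2. They were not the members of widest range, which were Ccr1l1 and Ccr4, both at 1.37. Some members went the other way, among them Ccr1l1, Cxcr3 and Ccl28. These were 5.49, 5.77 and 6.31 in P467L replicate 2 and 6.86, 6.47 and 7.13 in P467L replicate 3. Ccr2, Ccl9 and Ccl24 were lowest in P467L replicate 3, at 6.88, 5.62 and 5.89, and Ccl7 at 6.22 was its lowest but one there. In P467L replicate 2 they were 7.65, 6.78, 6.77 and 6.82. Cx3cr1 did not follow them, with its highest value, 6.98, in P467L replicate 3.

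Macrophage markers also differed between these mice. Of 15 markers listed, 13 were measured, all 13 had a higher mean in P467L mice, and 1 had an unadjusted p under 0.05, where 3.10% of all rows did, while 0 passed adjustment (limma). The median difference of the 13 was 0.15, which became 0.065 when P467L replicate 2 was left out and 0.27 when P467L replicate 3 was. Their median deviation was 0.37 in P467L replicate 2 and -0.13 in P467L replicate 3, and 0.10 in P467L replicate 1. In the controls it was 0.09, -0.18, -0.05 and -0.17. The mean log2 level of the list ran from 6.67 to 6.97 in non-transgenic and from 6.66 to 7.24 in P467L mice. Other marker lists moved between P467L replicates 2 and 3 as well. Their median deviations were 0.07 and -0.16 for endothelium, 0.14 and -0.08 for fibroblasts and -0.02 and -0.15 for smooth muscle. They rose for monocytes and neutrophils (-0.11 and 0.06), T and NK cells (-0.01 and 0.09) and B cells (-0.03 and 0.13). The part of macrophage or other cell content in the values of Ccr2, Ccl9, Ccl24, Ccl7 and Cx3cr1 was not tested.

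**Figure D4:**
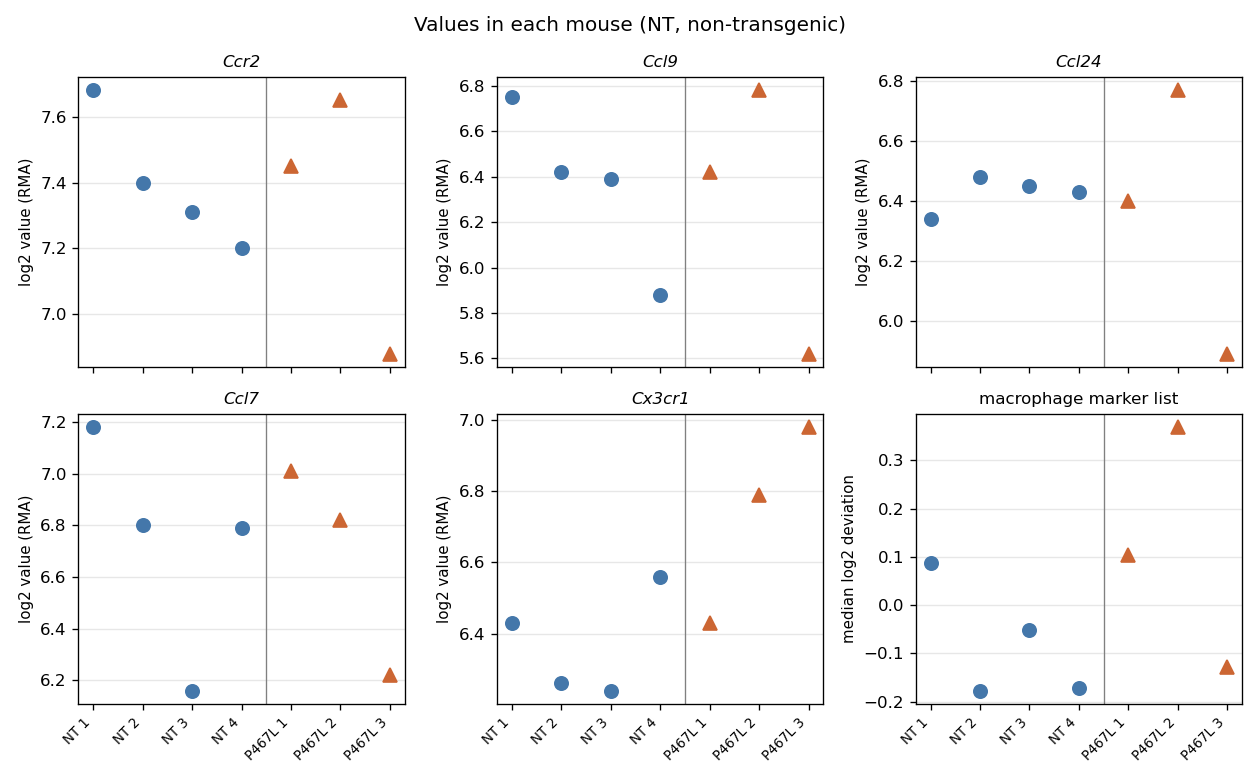
Log2 values of 5 members in each of the 7 mice (horizontal axis; NT, non-transgenic), and in the last panel the median log2 deviation of 13 macrophage markers. The vertical axes do not start at 0 and differ between panels. Ccr2, Ccl9 and Ccl24 are lowest in P467L replicate 3, where Cx3cr1 is highest. The 5 members were chosen after values were seen, and members that moved the other way, such as Ccr1l1 and Cxcr3, are not plotted.

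Other cell type markers give the setting of the members. The smooth muscle list, which defines the labelled tissue, was bright on every array. All 10 smooth muscle markers were lower in P467L mice, with a median difference of -0.17 and mean levels of the list of 10.03 to 10.24 in controls and 9.87 to 10.02 in P467L mice, and 1 had an unadjusted p under 0.05 (3.10% of all rows) while 2, Des and Smtn, did not overlap between groups (2.57% of all rows). The fibroblast list had 9 of 11 markers higher, with a median of 0.08 that ran from 0.045 to 0.1475 with 1 mouse left out. Of its markers 2, Dcn and Dpep1, had an unadjusted p under 0.05 (3.10% of all rows), and 1, Dcn, did not overlap (2.57% of all rows). The adipocyte list had 8 of 9 lower, with a median of -0.24 that was -0.05 without non-transgenic replicate 1. T and NK cell, B cell, and monocyte and neutrophil markers, which cover the cells that carry most of the receptors, had medians of 0.03, 0.01 and 0.00. With 1 mouse left out these ran from -0.01 to 0.05, from -0.02 to 0.065 and from -0.0375 to 0.07. Of the neutrophil genes, S100a8 ran from 4.17 to 6.96 and S100a9 from 5.88 to 8.25. Both were lowest in non-transgenic replicate 4 and highest in non-transgenic replicate 1. The B cell gene Ms4a1 had an unadjusted p of 0.0451 (limma), a level that 3.10% of all rows passed. The mast cell gene Fcer1a, with a difference of 0.48, had one of 0.013 (limma) and no overlap (2.57% of all rows). Both rows were dim, with means of 4.37 and 3.62. Of the 7 B cell markers 5 were higher and 2 lower, and of the 7 mast cell markers 4 were higher and 2 lower. Medians of the other lists were 0.01 for dendritic cells, 0.03 for mast cells, 0.03 for endothelium, 0.16 for lymphatic endothelium, 0.03 for mesothelium, 0.05 for nerve and Schwann cells and 0.07 for the 1 blood gene measured. The lymphatic list held 4 measured genes, 3 higher and 1, Prox1, lower at -0.11. Lyve1, at 0.35, is also in the macrophage list. With 1 mouse left out, the lymphatic median was 0.05 without P467L replicate 2. The ranges were -0.035 to 0.0425 for dendritic cells, -0.005 to 0.09 for endothelium, -0.035 to 0.0875 for mesothelium and -0.147 to 0.263 for the blood gene. In each of these lists 0 markers passed adjustment, and their part in the members' values was not tested.

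Genes around the chemokine system were followed in lists chosen by function. Of 25 genes that transmit chemokine receptor signals, 12 were higher and 12 lower, 0 passed adjustment, 1 of 25 (3.10% of all rows) had an unadjusted p under 0.05 and the median difference was 0. That gene was Gng2, a G protein gamma subunit, at 7.19, 7.12, 7.0 and 7.22 in non-transgenic mice and 7.61, 7.38 and 7.66 in P467L mice. The groups did not overlap, as in 2.57% of all rows. The difference was 0.42 with an interval of 0.20 to 0.63 (limma, unadjusted p = 0.00322, adjusted p = 1). Next in order of p were Was, an actin regulator of blood cells, at 0.10, and the kinase gene Ptk2b at -0.06.

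Of 16 genes for leukocyte adhesion and entry, 9 were higher and 7 lower, and 0 passed adjustment. Their median was 0.01 and took either sign with 1 mouse left out (-0.02125 to 0.025). Cd99l2, which serves the passage of leukocytes through endothelium, was 7.91, 7.83, 7.76 and 7.76 in non-transgenic mice and 7.65, 7.71 and 7.46 in P467L mice. Cd99l2 was the 1 gene of the 16 without overlap (2.57% of all rows) and the 1 with an unadjusted p under 0.05 (3.10% of all rows). Its difference was -0.21 with an interval of -0.39 to -0.03 (limma, unadjusted p = 0.0306, adjusted p = 1). The adhesion genes Jam3 and Icam2 had differences of 0.18 and 0.12.

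Of 19 further genes that NF-kappaB induces, 11 were higher and 7 lower, with a median of 0.02 (-0.0033 to 0.0467 with 1 mouse left out), and 0 had an unadjusted p under 0.05 (limma). Il6, a cytokine, was 3.11, 2.83, 2.87 and 2.82 in non-transgenic mice and 2.81, 2.66 and 2.74 in P467L mice. The groups did not overlap in this dim row, as in 2.57% of all rows, and the difference of -0.17 had an interval of -0.38 to 0.04. Saa3, an acute phase gene, was 6.01 in P467L replicate 1 and 4.61 to 4.93 in the other 6 mice, and Lcn2, another such gene, had a difference of 0.13. Of 8 chemokine-related genes that the symbol rule leaves out, 4 were higher and 4 lower. Ccrl2, an atypical receptor-like gene, had a difference of 0.20, the endothelial scavenger Gpr182 one of -0.27 and Cd74, a receptor of MIF, one of 0.09.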

How the data were processed

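Mesenteric artery RNA of 7 mice was amplified and hybridised singly, per the labels' protocols. The deposited log2 values, with 2 decimals, were made by the authors with Affymetrix Power Tools and RMA on mm9, per the submitters' processing notes, without versions. RMA shrinks differences of dim rows and can return ties. The number of arrays limits the precision. A limma p-value sets a difference between groups against the spread of mice within groups, with that spread moderated over all rows. Beside the 7 sample columns, 0 other per-sample columns were present. Rows were named through the platform annotation given with the values.

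All 23332 rows were fitted with limma 3.58.1 in R 4.3.3 (lmFit, eBayes, no covariate), with Benjamini-Hochberg adjustment and a threshold of 0.05. The fit was tested on simulated data. A first criterion there, on the share of strongly changed rows recovered, was not met. It was replaced by criteria on interval coverage, error rate and bias, which were met, and the fit was not changed. The simulated noise was normal with each row's own spread, and the criteria that were met do not measure the power to find a change.

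The members and the 18 gene lists (224 genes, 180 measured) were chosen with earlier results of these data known. Named members are the 6 of highest mean, up to 5 per direction by p, and 17 genes of the main axes; up to 3 genes per pathway list follow by p, and other members are given for completeness. The motifs, the printed promoters, the background over rows with 1 symbol and the genes plotted mouse by mouse were chosen after values were seen. Alternatives covered scaling, dim rows, moderation, array weights, a replicate block, tied rows, annotation and each mouse left out.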

Additional observations from a re-analysis of the deposited data

Results flagged for a closer look

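In the 4 non-transgenic mice, 1 mouse stood apart from 3 closely spaced others in 6 of the 52 members and in 3 further genes; the group of 3 P467L mice was not tested in this way. Non-transgenic replicate 4 was the mouse apart for Cxcr1, at 6.14 against 6.38 to 6.40, for Ccl4, at 6.31 against 5.93 to 5.98, for Ccl22, at 5.74 against 5.72, for Ccr1, at 5.24 against 5.30, and for Saa3, at 4.61 against 4.69. Replicate 3 was apart for Cxcl16, at 6.23 against 6.41 to 6.44, and for Icam2, at 7.04 against 7.39 to 7.41. Replicate 2 was apart for Ccr9, at 4.57 against 4.62, and replicate 1 for Ptk2b, at 6.21 against 6.09 to 6.11. In Ccl22, Ccr1, Ccr9 and Saa3 the other 3 mice share 1 value. Chance flags about 1 in 20 such groups, and 64 were tested. A first pass that also took the leading genes of the marker lists tested 104 groups and found 19; it was narrowed, after that count was seen, to genes the text names.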

How the results depend on the processing

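Under every alternative run, 0 members passed the adjusted threshold, and the smallest adjusted p of a named member was 0.353. Members with an unadjusted p under 0.05 numbered 1 of 17 with the lowest 50% of rows left out (5.88%, against 3.03% of the rows tested), 2 with the replicate block (3.85%, against 3.92%), 7 with array weights (13.5%, against 12.1%) and 0 to 3 with 1 mouse left out. The 3, without P467L replicate 1, were Ccr7, Cx3cr1 and Cxcl9 (5.77%, against 3.43%). Members without overlap then numbered 0 to 5: 5 without P467L replicate 1 (9.62%, against 7.31% of rows), and 3 each without P467L replicate 2 or 3 (5.77%, against 10.4% and 9.85%). The median difference of all members was 0.015 with the lowest 50% left out and 0.025 to 0.061 with 1 mouse left out. That of signalling receptors was 0.149 and 0.0392 without the lowest 25% and 50% of rows, 0.052 with array weights, 0.133 with the replicate block, 0.134 without tied rows and 0.0467 to 0.133 with 1 mouse left out. For ligands that range was -0.01 to 0.04, for atypical receptors 0.0667 to 0.0967 and for the named members 0.0417 to 0.122. The ligand median was -0.0186 with array weights and -0.0017 and -0.0133 without the lowest 25% and 50% of rows, and that of atypical receptors 0.142 without the lowest 50%. The NF-kappaB list's median was -0.0033 with the replicate block.

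Of 28 named members 18 kept their sign throughout. With array weights, Ccr2 (0.0723), Ccr10 (0.0128) and Ccl7 (0.295) changed sign, and with the replicate block Cxcl12 (0.0033) and Ccl2 (0.04) did. With 1 mouse left out, the differences ran from -0.2325 to 0.1525 for Ccr2, -0.143 to 0.0567 for Cxcl10, -0.24 to 0.1825 for Ccl7, -0.07 to 0.035 for Cxcl12, -0.025 to 0.095 for Cx3cl1, -0.11 to 0.155 for Cxcl16, -0.03 to 0.04 for Ccl2, -0.0133 to 0.223 for Cxcr6 and -0.035 to 0.16 for Ccl8. The cause was not tested. Array weights ranged from 0.33 for P467L replicate 3 to 3.54 for P467L replicate 1. The correlations of same-numbered deviations were 0.116, -0.205 and -0.0904. Without the same correlations for mice of different numbers, they cannot settle whether the replicate numbers pair the mice. With the replicate number as a block, 0 members were called, as without it, and 37 members rather than 32 were higher in P467L mice.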
